A study of Mus musculus with 28 samples.

Results

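The reproductive homeobox genes on the X chromosome (Rhox) encode homeodomain transcription factors of the reproductive tract. Here 6 of them, Rhox1, Rhox5, Rhox8, Rhox10, Rhox11 and Rhox13, were taken by symbol from the gene table of testis mRNA, and all 6 were present in it. They hold 7 of its 34839 gene entries, because Rhox5 is entered under 2 Ensembl identifiers. Symbols starting with Rhox cover 46 entries and 42 genes, so 36 Rhox genes lie outside the 6. Whole-testis mRNA came from C57BL/6 mice of 3 genotypes, with 2 libraries of the Prdm9 knockout (KO), 2 of the Hop2 KO and 1 of wild type, labelled adult. PRDM9 methylates histones at the sites where meiotic recombination is then started, and HOP2, encoded by Psmc3ip, assists strand exchange at the breaks. Neither the age of the knockout mice nor the kind of knockout allele is given in the sources used here, and nothing says that the libraries of a genotype came from separate animals, so a p-value measures only the spread between these libraries. A further C57BL/6 testis library mapped meiotic DNA breaks in mice homozygous for a Prdm9 allele without the KRAB domain (Prdm9 K/K).

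The cluster is known for a division between cell types. Rhox5, its founding gene, and Rhox8 are transcription factor genes of Sertoli cells, the somatic cells that nurse the germ cells, and Rhox5 depends there on androgen. Rhox10 acts in early spermatogonia and the making of the stem cell pool, and Rhox13 marks differentiating spermatogonia and the germ cells entering meiosis. Both mutants studied here are known to arrest in meiotic prophase, so their tubules keep Sertoli cells, spermatogonia and early spermatocytes and lack spermatids.

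The 4 promoters below are shown because break mapping, described at the end, separated them: 3 of their starts lay under a break peak and that of Rhox5 did not. Each runs from 250 bases before to 50 bases after the RefSeq start (build GRCm38.p6), and capitals mark CG dinucleotides.
Rhox5: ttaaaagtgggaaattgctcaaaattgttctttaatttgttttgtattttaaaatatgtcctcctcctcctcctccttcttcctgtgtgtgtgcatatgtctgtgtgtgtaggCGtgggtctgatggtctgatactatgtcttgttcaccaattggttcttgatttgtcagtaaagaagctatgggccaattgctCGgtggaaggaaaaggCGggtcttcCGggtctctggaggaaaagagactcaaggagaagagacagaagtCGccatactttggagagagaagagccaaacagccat
Rhox10: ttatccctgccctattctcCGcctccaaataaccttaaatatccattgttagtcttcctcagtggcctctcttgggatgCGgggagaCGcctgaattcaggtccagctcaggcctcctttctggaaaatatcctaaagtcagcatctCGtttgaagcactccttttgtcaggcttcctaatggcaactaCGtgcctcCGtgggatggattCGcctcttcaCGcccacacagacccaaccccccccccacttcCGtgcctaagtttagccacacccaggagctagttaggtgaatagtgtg
Rhox11: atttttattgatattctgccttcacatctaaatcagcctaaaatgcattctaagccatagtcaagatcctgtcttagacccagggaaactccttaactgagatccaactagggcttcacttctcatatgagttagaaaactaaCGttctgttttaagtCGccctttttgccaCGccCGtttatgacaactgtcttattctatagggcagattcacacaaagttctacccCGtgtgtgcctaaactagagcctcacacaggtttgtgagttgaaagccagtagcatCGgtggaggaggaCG
Rhox13: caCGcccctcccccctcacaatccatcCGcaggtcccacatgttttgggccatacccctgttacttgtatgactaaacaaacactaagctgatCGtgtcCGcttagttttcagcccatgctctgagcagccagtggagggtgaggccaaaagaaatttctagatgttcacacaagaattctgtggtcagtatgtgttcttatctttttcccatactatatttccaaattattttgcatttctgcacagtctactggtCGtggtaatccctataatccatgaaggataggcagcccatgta
The Rhox5 stretch is chrX:37754358-37754657 on the plus strand, with a GC content of 43.7% and 5 CG pairs. It lies at the upstream end of a gene spanning chrX:37754608-37808878. Where each Rhox5 transcript starts is not given here, so other starts of the gene were not examined. The Rhox10 stretch is chrX:38066225-38066524 on the plus strand, with 52.0% GC and 9 CG pairs. The Rhox11 stretch is chrX:38085090-38085389 on the minus strand, with 43.0% GC and 7 CG pairs. The Rhox13 stretch is chrX:38120590-38120889 on the plus strand, with 45.3% GC and 5 CG pairs. Over all promoters of this length the medians were 52.7% GC and 7 CG pairs, so all 4 were ordinary or slightly poor in GC. The Rhox1 promoter (chrX:37222209-37222508, minus strand) held 0 CG pairs, and Rhox8 had no sequence here.

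Both strands were searched for 4 motifs. The ETS site CCGGAAG, bound by GABP, was found 34 bases before the RefSeq start of Rhox5 and in 8.86% of all promoters. The TATA box TATAAA (13.6% of all promoters), the CRE core TGACGT (7.51%) and the STRA8 motif CNCCTCAG (7.94%) were in none of the 5 member promoters. A match is a run of letters and not evidence of binding.

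Values are the authors' TPM, a measure of transcript abundance per length, after a rescaling that leaves column sums of 825459 to 953598 in the knockouts and 1622660 in wild type. Read depth is unknown. Hop2 KO libraries held Psmc3ip at 3.51 and 5.06, Prdm9 KO libraries at 22.8 and 26.4, and wild type at 197. Part of the fall from wild type was thus shared by both knockouts. Prdm9 stood at 4.73 and 5.93 in the Prdm9 KO libraries and at 10.7 and 15.0 in those of the Hop2 KO. Wild-type Prdm9 was 6.20, so the Prdm9 mRNA level gave no check of the Prdm9 KO label against wild type (log2 difference -0.19, limma adjusted p = 0.567). The 8 spermatid markers summed to 1.78 to 31.5 in the knockouts and 119208 in wild type, while the 25 Sertoli markers summed to 16493 to 25186 and 4523. In these bulk samples fewer cells of a type and less RNA per cell cannot be told apart.

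Among the somatic genes, Rhox5 stood at 80.5 and 75.3 with Prdm9 knocked out, at 98.5 and 82.9 with Hop2 knocked out and at 17.7 in the wild type. Both comparisons with wild type share 1 library, which the test assumes to vary like the knockouts. Every knockout value of Rhox5 was above wild type, the lowest by 4.26-fold, and the knockout genotypes overlapped. Relative to wild type Rhox5 rose by 2.08 on the log2(value + 1) scale in Prdm9 KO (SE 0.15, limma adjusted p = 0.00113) and by 2.29 in Hop2 KO (SE 0.15, adjusted p = 0.000870). Rhox8 measured 33.4 and 55.6 (Prdm9 KO), 35.7 and 78.2 (Hop2 KO) and 13.1 (wild type). All 4 knockout values were again higher, but 1 library of each genotype was well above the other. The log2 differences of Rhox8 were 1.65 and 1.94 (SE 0.61 each), and neither passed the limma test (adjusted p = 0.0772 and 0.0521).

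The Rhox8 call depended on the setting, with 5 of 15 alternatives calling it in Prdm9 KO and 7 of 15 in Hop2 KO. With a minimum mean of 5 the limma adjusted p became 0.0475 for Prdm9 KO and 0.0291 for Hop2 KO, and with quantile normalization 0.0308 and 0.0220. Without the filter it was 0.146 and 0.108, and with a pseudocount of 5 it was 0.106 and 0.0720. Leaving out the second Prdm9 KO library gave 0.218 for Prdm9 KO, and leaving out the first Hop2 KO library 0.0370 for Hop2 KO.

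**Figure D1:**
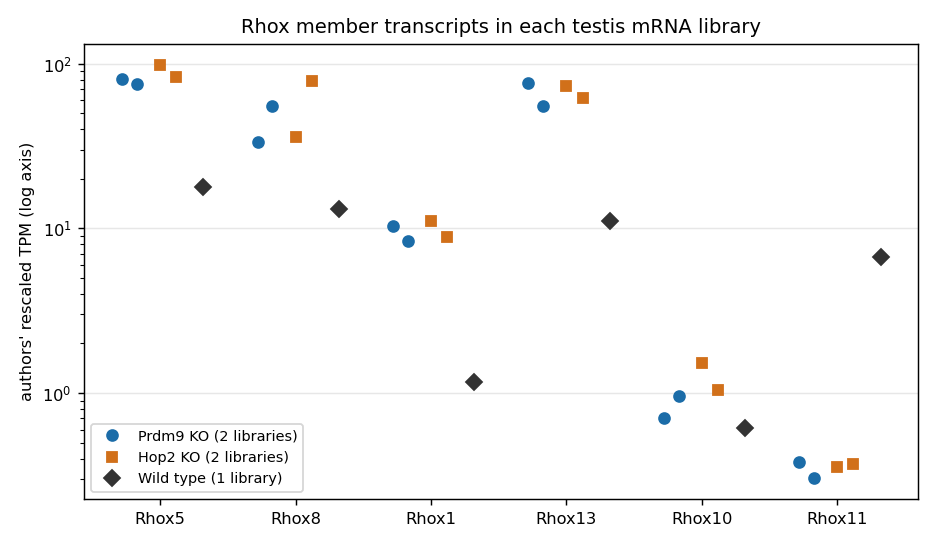
Authors' rescaled TPM (log axis) of each member in each library, with circles for Prdm9 KO, squares for Hop2 KO and a diamond for the wild-type library. Knockout points lie above the diamond for every gene except Rhox11, whose 4 knockout values lie between 0.304 and 0.382 against 6.67 in wild type.

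Rhox1, a gene at the outer end of the cluster, stood at 10.3 and 8.42 with Prdm9 knocked out, at 11.1 and 8.86 with Hop2 knocked out and at 1.16 in the wild type. Its mean was 8.34-fold higher over the knockouts, against 4.77-fold for Rhox5 and 3.88-fold for Rhox8. Rhox1 rose by 2.26 and 2.34 on the log2 scale (SE 0.22 each, limma adjusted p = 0.00257 and 0.00231). The size depends on the pseudocount, with 1.22 and 1.28 at a pseudocount of 5.

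The germ cell genes stood at very different levels. Rhox13 measured 76.5 and 55.4 (Prdm9 KO), 73.2 and 61.5 (Hop2 KO) and 11.1 (wild type). Every knockout value was above the wild-type library, the knockout genotypes overlapped, and the mean was 6.02-fold higher in the knockouts. Rhox13 rose by 2.45 in Prdm9 KO and 2.50 in Hop2 KO on the log2 scale (SE 0.25 each, limma adjusted p = 0.00282 and 0.00264). Rhox10 stood at 0.701 and 0.952 with Prdm9 knocked out, at 1.53 and 1.04 with Hop2 knocked out and at 0.614 in the wild type. Its mean over the 5 libraries was 0.968, under the minimum of 1, so it was not tested against wild type. Rhox13 was 47.9 to 109 times as abundant as Rhox10 in the knockouts and 18.0 times in wild type.

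Rhox11 went the other way. It measured 0.382 and 0.304 (Prdm9 KO), 0.356 and 0.368 (Hop2 KO) and 6.67 (wild type), 18.9-fold above the knockout mean. Rhox11 fell by 2.51 and 2.49 on the log2 scale (SE 0.062 each, limma adjusted p = 7.4e-05 and 7.5e-05). It passed the filter only through the wild-type library, where it is high, so once tested it had to differ. With a pseudocount of 5 the differences were -1.13 and -1.12.

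Of the 5 members tested against wild type, Rhox1, Rhox5 and Rhox13 rose in both knockouts, Rhox11 fell, tested only for its wild-type level, and Rhox8 did not pass in either. Of all 16261 genes tested, 74.1% were called in Prdm9 KO (34.6% higher, 39.4% lower) and 74.5% in Hop2 KO (35.0% higher, 39.5% lower), so a call alone sets no member apart. The median change over all genes was -0.08 and -0.06 on the log2 scale, and it moved to 0.58 and 0.59 with quantile normalization, 0.18 and 0.19 with median-ratio scaling and 0.77 and 0.68 with columns rescaled to the same sum. Of the genes called, 46.8% and 47.0% were higher, against 61.8% and 61.5% with quantile normalization, 66.0% and 64.0% with rescaled columns and 31.1% and 31.3% without the filter. Rhox1, Rhox5, Rhox13 and Rhox11 kept direction and call under each of these.

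**Figure D2:**
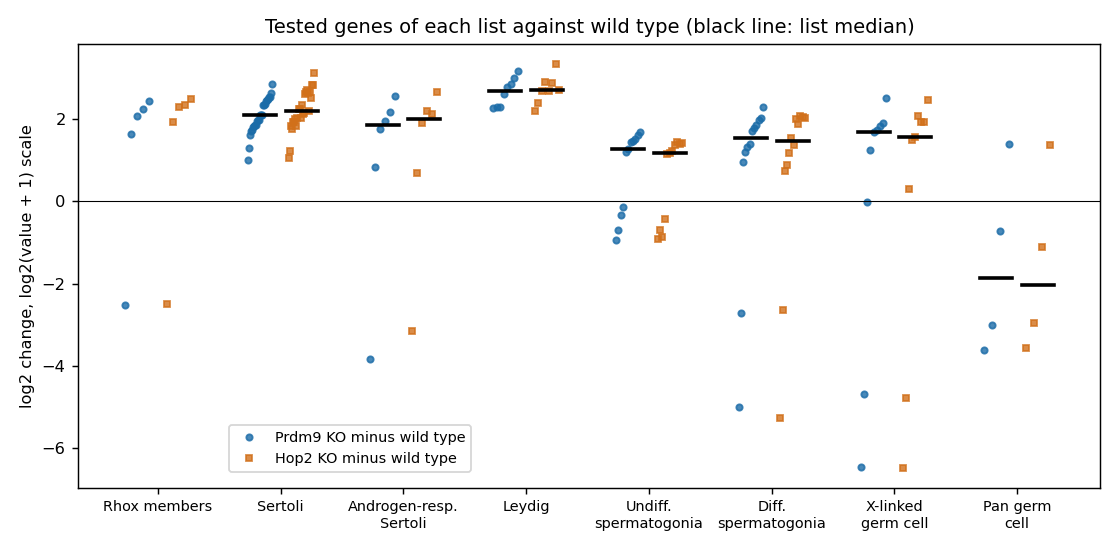
Log2 change against wild type of each tested gene in 7 lists, with the 5 tested members at the left, circles for Prdm9 KO and squares for Hop2 KO, and a black line at each list's median. Rhox11 is the only member below 0, and no tested gene of the Sertoli or Leydig lists is.

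The 2 knockouts were then compared with each other, which leaves out the wild-type library. Rhox11, under the minimum mean in these 4 libraries, was not tested. None of the other 5 members was called (limma adjusted p = 0.972 to 0.992), where 0.0139% of 14358 genes were called, and 3.10% at an unadjusted p under 0.05. The log2 difference, Prdm9 KO minus Hop2 KO, was -0.21 for Rhox5 (95% interval -0.56 to 0.14) and -0.29 for Rhox8 (-1.43 to 0.85). Rhox13 differed by -0.04 (-0.55 to 0.47), Rhox1 by -0.08 (-0.54 to 0.38) and Rhox10 by -0.32 (-0.87 to 0.23). The intervals of Rhox1, Rhox5 and Rhox13 leave room for differences under 0.6 in size on this scale, and that of Rhox8 for much larger ones. In the authors' deposited table, whose compared groups are not named, Rhox5 had p = 0.0870, Rhox10 p = 0.126 and the other 4 members p = 1, with q = 1 for all 6.

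In order of level, Rhox5 led in every library. Rhox13 followed in the first library of each knockout, and Rhox8 in the second and in wild type, so Rhox8 and Rhox13 are not separated beyond their spread. Rhox5 was 1.05 to 1.36 times Rhox13 in the knockouts and 1.60 times in wild type. Rhox1 stood below these 3 in every library, and Rhox10 above Rhox11 in each knockout. Wild type alone placed Rhox11 above Rhox1 and Rhox10. The mean log2 level of the somatic genes Rhox5 and Rhox8 exceeded that of the germ cell genes Rhox10 and Rhox13 by 2.21 and 2.65 (Prdm9 KO), 2.14 and 2.85 (Hop2 KO) and 1.88 (wild type). The difference was thus larger in each knockout library, by 0.58 on average, and of the 4 genes Rhox8 varied most among them. The larger difference rests on Rhox10, which was near the floor (0.614 to 1.53) and moved little. Rhox13 rose more (2.45 and 2.50) than Rhox5 (2.08 and 2.29) or Rhox8 (1.65 and 1.94). The difference therefore does not mean that the somatic genes rose more. With 2 genes a side it is a description only.

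The Rhox5 level itself is uncertain by its duplicate entry. Both entries (ENSMUSG00000095180 and ENSMUSG00000097306) hold identical values in all 5 libraries, as do the pairs of entries of Rhox6, Rhox7a and Rhox9. If reads were split between 2 copies of the same sequence, the gene's level would be their sum, 151 to 197 in the knockouts and 35.4 in wild type, clear of Rhox13 in every library. The log2 change in Prdm9 KO was 2.11 with the entries summed.

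Rhox5 is also the only member with 2 annotated transcripts per entry. ENSMUST00000184866 was at 57.9 and 63.6 (Prdm9 KO), 76.4 and 73.9 (Hop2 KO) and 13.3 (wild type), and carried most of the gene in every library. ENSMUST00000179626 was at 22.6 and 11.7, 22.1 and 9.06, and 4.36. Its share of Rhox5 was 28.1% and 15.5% (Prdm9 KO), 22.4% and 10.9% (Hop2 KO) and 24.6% (wild type). The minor transcript was thus lower in the second library of each knockout, by ratios of 0.517 and 0.410, while the major one moved by 1.10 and 0.967.

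**Figure D3:**
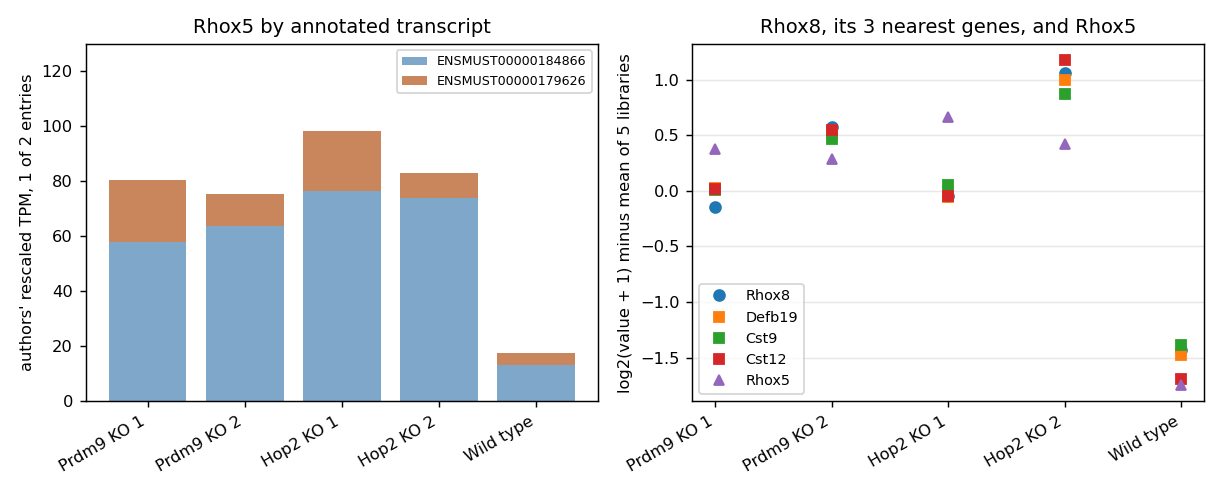
Left, rescaled TPM of 1 Rhox5 entry in each library, stacked by annotated transcript (bars start at 0). Right, log2(value + 1) of Rhox8, Defb19, Cst9, Cst12 and Rhox5 minus each gene's mean over the 5 libraries. The second library of each knockout has less of the minor Rhox5 transcript and more Rhox8 than the first.

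Rhox8 moved between libraries of 1 genotype more than most genes. The second library exceeded the first 1.67-fold in Prdm9 KO and 2.19-fold in Hop2 KO, above 94.3% and 95.2% of genes tested. The 3 genes whose profile over the 5 libraries was nearest to that of Rhox8, by Euclidean distance between centred log2 values among 13855 genes, were Defb19 (a beta-defensin), Cst9 and Cst12 (cystatins), all in the Sertoli list. Chosen for that likeness, these genes had to share much of the Rhox8 shift between libraries. Cst12 was 1.45 and 2.33 times as high in the second library, and Defb19 1.39 and 2.07 times. The Sertoli regulators Sox9 (0.924 and 1.00) and Wt1 (0.898 and 0.973) were not. The Leydig hormone Insl3 was, with 31185 and 44712 (Prdm9 KO) and 21025 and 68224 (Hop2 KO), and its part in the Rhox8 result was not tested. Other Leydig genes were split. Hsd3b1 was also higher there, at 310 and 665 (Prdm9 KO) and 257 and 425 (Hop2 KO). Star (ratios 1.08 and 0.870) and Hsd3b6 (0.791 and 0.912) were not higher in both.

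The nearest profiles to Rhox5 were those of Ctso (distance 0.0904), Gatm (0.0999) and Ftsj1, with knockout means 5.39, 4.57 and 5.23 times wild type. Ctso encodes a cathepsin, and Gatm the first enzyme of creatine synthesis. Nearest to Rhox13 were Dhcr7, which makes cholesterol in the last step of its synthesis, Litaf and Selenbp1, at 5.55, 5.59 and 6.03 times wild type. Rhox10 was nearest to Stbd1, Ap1m2 and Rsl1, whose knockout means were only 1.34 to 1.49 times wild type. Likeness over 5 libraries, 1 of them wild type, rests largely on that library.

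Markers of the cells that carry these genes gave the setting. Of all genes tested, 34.6% rose and 39.4% fell in Prdm9 KO, and 35.0% and 39.5% in Hop2 KO. Of 25 Sertoli genes tested, 22 rose in Prdm9 KO, 23 rose with Hop2 knocked out and 0 fell, with median log2 changes of 2.09 and 2.20. Shbg, which encodes the androgen carrier, rose most by 2.86 and 3.12, and the iron carrier Trf rose by 2.64 and 2.84. The Rhox5 changes (2.08 and 2.29) lay close to these medians. Of 6 tested genes that answer to androgen in Sertoli cells, 4 rose in each knockout, among them Drd4 (2.57 and 2.66) and Gpd1 (2.18 and 2.14). Cldn3, a tight junction gene, fell by 3.84 in Prdm9 KO (adjusted p = 0.0424). In Hop2 KO its difference of -3.15 did not pass (limma adjusted p = 0.0692), and the Prdm9 KO call held in 9 of 15 alternatives.

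Germ cell lists were mixed, where 34.6% and 35.0% of all genes rose and 39.4% and 39.5% fell. Of 12 genes of differentiating spermatogonia and meiotic entry, 8 rose and 2 fell in each knockout, with medians of 1.56 and 1.46. Kit, the stem cell factor receptor, rose by 2.30 and 2.04 and Stra8, a driver of meiotic entry, by 1.99 and 2.09. Dmrtb1 fell by 5.01 and 5.28, and Rec8 by 2.71 and 2.64. Rhox13 (2.45 and 2.50) lay above both medians. Of 11 tested genes of undifferentiated spermatogonia 7 rose in each, among them Sall4 (1.70 and 1.43) and Ret (1.61 and 1.39), and 2 and 3 fell. Ret, at 0.801 in wild type, passed the filter only through the knockouts. Of 9 other X-linked germ cell genes, 6 rose, such as Tktl1 (2.52 and 2.46), and 2 fell in each. Those were Tex13a, at 88.1 in wild type and at most 0.00812 in a knockout, and Fthl17a, at 44.7 and at most 0.836, both of which passed the filter only through wild type. Rhox11 was thus not the only X-linked gene that was low in both knockouts.

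Genes reported to control the cluster or to answer to it were given beside the members. Of 9 regulators, 4 rose and 3 fell in each knockout, near the shares of all genes (34.6% and 35.0% higher, 39.4% and 39.5% lower), so the count is no result about them. Dmrt1 rose by 1.86 and 1.88. Dnmt3l, a cofactor of DNA methylation, fell by 2.27 and 2.10, and Ehmt2, an H3K9 methyltransferase gene, by 1.70 and 1.67. Of the reported Rhox5 targets Unc5c was too low to test, and Ins2 rose by 0.56 and 0.63 from 0.527 in wild type to 1.13 to 1.42. Ins2 passed the filter only through the knockouts.

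Other cell types moved as well, where 34.6% and 35.0% of all genes rose. Of 8 Leydig markers 7 rose in each knockout (medians 2.70 and 2.71), and all 8 macrophage markers rose (2.16 and 2.47), summing to 465 to 812 in the knockouts and 89.1 in wild type. Of 6 peritubular myoid markers only 2 rose in Prdm9 KO and 4 in Hop2 KO (medians 1.09 and 1.38). Of 6 endothelium markers 4 rose in each knockout (medians 0.684 and 0.813), and 1 fell in Prdm9 KO. The epididymis, where several Rhox genes are abundant, left little trace: 9 of 12 markers were under 1 in every library, and they summed to 0.494 to 2.21 in the knockouts and 10.0 in wild type. The part of these cell types in the Rhox results was not tested.

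The rest of the cluster split by subfamily. Of the 36 other Rhox genes 19 were tested, and 12 rose and 1 fell in each knockout, against the shares of all genes given above. All 8 Rhox2 genes rose in each. Their sum measured 57.4 and 71.9 (Prdm9 KO), 65.5 and 80.6 (Hop2 KO) and 5.78 (wild type), 11.9-fold lower. Rhox2a was the most abundant, at 19.6 to 25.9 in the knockouts and 2.12 in wild type. Rhox2b, Rhox2d, Rhox2e, Rhox2f, Rhox2g and Rhox2h were under 1 in wild type, as was Rhox7-ps1, which also rose. These genes passed the filter only through the knockouts, so once tested they had to be higher there. The counts of 8 and 12 include them. The 7 Rhox3 genes summed to 11.1 and 18.3, 14.0 and 23.0, and 17.5, and none of the 5 tested was called in either comparison by limma, at an adjusted or an unadjusted p under 0.05. Some alternatives called Rhox3h, Rhox3a2, Rhox3e or Rhox3b-ps. The 8 Rhox4 genes summed to only 1.03 to 1.32 in the knockouts and 1.05 in wild type. Rhox7a, with 4.53 to 5.51 in the knockouts and 1.66 in wild type, rose by 1.08 and 1.21.

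Neighbouring Rhox2, Rhox3 and Rhox4 genes are close copies, and reads that fit several copies may have been divided among them, so values of single copies are uncertain. Rhox11-ps2, a gene with the name of a Rhox11 copy, was the 1 that fell. It was at 0.286 to 0.529 in the knockouts and 5.60 in wild type, a fall by 2.24 and 2.21 on the log2 scale (limma adjusted p = 0.000923 in Prdm9 KO), and like Rhox11 it passed the filter only through wild type. With 1 entry counted per gene, Rhox transcripts summed to 314 to 382 in the knockouts and 92.4 in wild type, or 0.0360% to 0.0401% and 0.00569% of the column sum over all entries.

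**Figure D4:**
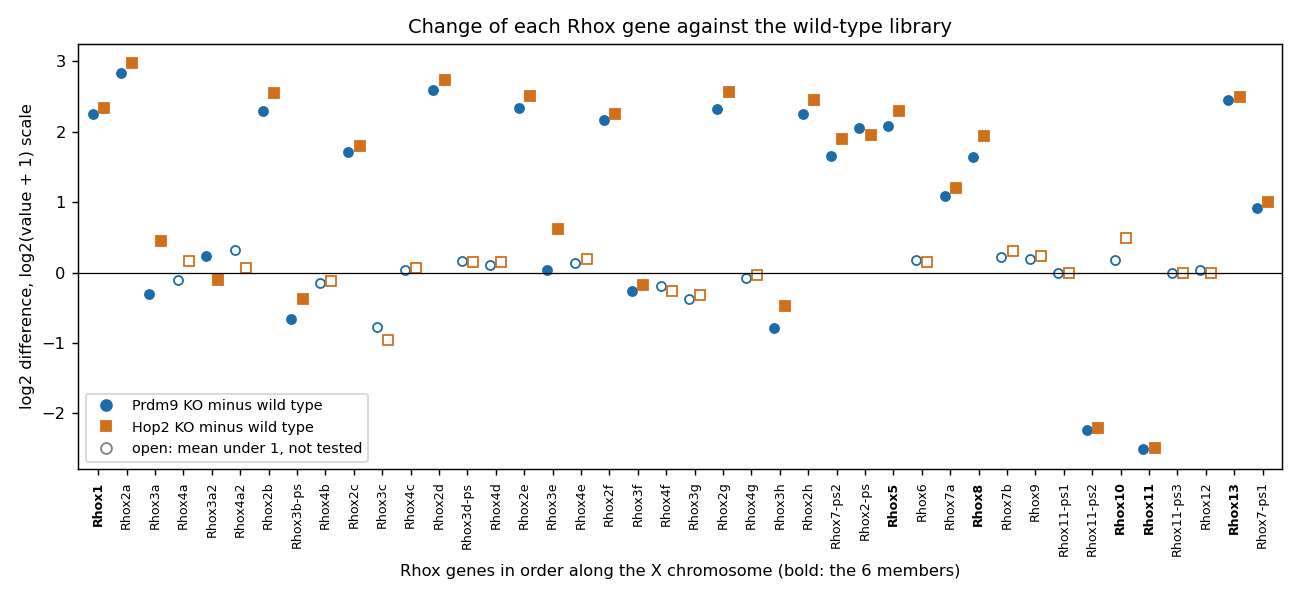
Log2 difference against wild type of 42 Rhox genes in their order along the X chromosome, with circles for Prdm9 KO, squares for Hop2 KO and open symbols for genes under a mean of 1. Rhox2 copies recur well above 0 between Rhox3 and Rhox4 copies that lie within 1 of it, and Rhox11 and Rhox11-ps2 stand below -2.

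Meiotic breaks gave a second readout of the cluster. Single-stranded DNA sequencing (SSDS) collects the DNA strand exposed at meiotic breaks, and in mice without working PRDM9 such breaks are known to form at promoters and other sites with trimethylated H3 lysine 4. The Prdm9 K/K library held 17731 peaks, 610 of them on the X chromosome, and has no replicate. Of 5 member starts with a RefSeq position, 3 lay within 2000 bases of a peak: Rhox10, Rhox11 and Rhox13. The same held for 4 of 28 Rhox starts (14.3%), 38.8% of X-chromosome starts and 35.6% of all starts.

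Rhox11 had 194 distinct fragments within 2000 bases of its start, more than 98.0% of X-chromosome starts, under a peak at chrX:38082768-38086109 (build mm10). Rhox13 had 123, more than 93.9%, under a peak at chrX:38119984-38122980. Rhox10 had 28, above 69.8% of X-chromosome starts, under a peak at chrX:38065977-38067603. The 3 promoters printed above for these genes lie wholly inside their peaks. Rhox5 had 2 fragments at its RefSeq start and 1 over the whole gene, and the nearest peak was 70425 bases away from either. The whole Rhox8 gene was 53818 bases from a peak, with 2 and 11 fragments at its ends. Rhox1 had 0 fragments at its start, and its nearest peak lay inside the gene, 3213 bases away. Thus the somatic genes Rhox5 and Rhox8 had no break peak, and the germ cell genes Rhox10 and Rhox13 each had one at the start.

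**Figure D5:**
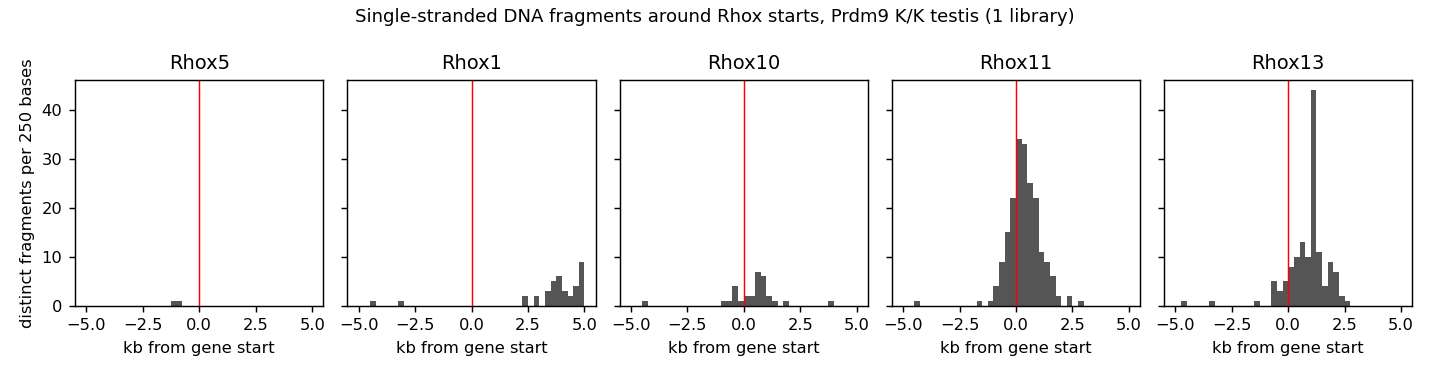
Distinct single-stranded fragments per 250 bases against distance from the gene start (kb, red line at 0, positive into the gene) in 1 Prdm9 K/K testis library. Fragments gather around the Rhox11 start. At Rhox13 and Rhox10 they overlap the start but are most frequent inside the gene, at 1000 to 1250 and 500 to 1000 bases. They are nearly absent around Rhox5, and at Rhox1 lie inside the gene.

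Break density differed along the cluster, which from Rhox1 to Rhox13 held 6 peaks (6.55 per Mb) and 0.897 distinct fragments per kb. The stretch from Rhox10 to Rhox13 (63.5 kb) held 3 peaks and 5.95 distinct fragments per kb. That from Rhox5 to Rhox9 held 0 peaks and 0.462 per kb, and the repeated Rhox2, Rhox3 and Rhox4 copies 0 peaks and 0.423 per kb, where reads of close copies may have been left out. The other peaks of the cluster lay inside Rhox1, 9022 bases from the Rhox2h start and at the Rhox11-ps2 start, outside these stretches. The X chromosome as a whole had 3.57 peaks per Mb and 0.593 fragments per kb. Among genes with a knockout mean of at least 10, 74.0% of all genes had a peak at a start, yet Rhox5 (mean 84.3) had none. Rhox10 (mean 1.06) had one, as did 62.9% of X-chromosome starts of genes with a knockout mean of at least 1. Rhox11 (mean 0.352) had one at lower mRNA, and the share among genes that low was not counted.

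The same count was made for the marker lists, a comparison chosen after values were seen. At a knockout mean of at least 10, a peak stood at a start of 1 of 15 Sertoli genes (6.67%), 0 of 6 Leydig genes and 0 of 5 androgen-responsive genes. It stood at 8 of 10 genes of differentiating spermatogonia (80.0%), 4 of 4 pan germ cell genes and 4 of 5 X-linked germ cell genes. Breaks were mapped in K/K mice and mRNA in knockouts, so the 2 readouts come from different animals.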

How the data were processed

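Testis mRNA was analysed in 5 libraries and break mapping in 1, of 28 samples in the series. The mRNA values are an abundance signal for genes and transcripts that the authors called TPM, per the file headers. CASAVA, kallisto and sleuth, with builds GRCm38 and mm10, are named in the submitters' processing notes, without versions. Column sums differ from those of plain TPM, so the deposited values are treated as rescaled, and depth is unknown. A deposited table holds the p-values and q-values of a gene test by the authors. Break peaks were called with MACS2 2.1.0.20150420, and reads aligned with BWA 0.7.12, as far as the submitters' processing notes name tools, and the deposited fragment signal was counted once per distinct position.

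Log2(value + 1) was tested with limma 3.58.1 in R 4.3.3 (intensity trend, mean of at least 1 over fitted libraries, Benjamini-Hochberg over all genes tested, threshold 0.05, two-sided), on 4 libraries for knockout against knockout and on 5 for wild type. The scripts were tested on simulated data. Named genes were drawn from the members, other Rhox genes with a mean of at least 1, and the 3 nearest profiles. The 3 largest changes per list were a further source, and not every gene so chosen is named. Stra8, Sox9, Wt1 and Star were added after values were seen. A further gene of the fixed lists is not reported here. Members and lists were chosen with earlier results of these data known. RefSeq promoters are from GRCm38.p6. Of 34839 gene identifiers 34379 matched the name table. Alternatives covered pseudocount, filter, scaling, trend, libraries and block.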

Additional observations from a re-analysis of the deposited data

How the results depend on the processing

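Rhox1, Rhox5 and Rhox13 stayed called higher in 15 of 15 alternatives in both comparisons with wild type. Rhox11 was called lower in the 14 alternatives that tested it, which says nothing of stability for a gene that passes the filter through wild type alone. Besides the settings given above, Rhox8 was called with median-ratio scaling (limma adjusted p = 0.0468 and 0.0324), with rescaled columns (0.0203 and 0.0171) and, in Hop2 KO, with a pseudocount of 0.5 (0.0484). Rhox10, where tested, reached 0.17 (adjusted p = 0.510) and 0.49 (0.131) without the filter, and 0.52 (0.0903) and 0.79 (0.0304) with rescaled columns.

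Library numbers recur in both knockouts without a stated meaning, and deviations of same-numbered libraries correlated at 0.415 over 16261 genes. With the number as a replicate block, 8 genes in place of 2 were called between the knockouts (1536 at an unadjusted p under 0.05 by limma), and Rhox8 was called against wild type (adjusted p = 0.00506 and 0.00361). Between the knockouts 1 gene was called with a pseudocount of 5, 0 without the filter (980 unadjusted), 0 with all 5 libraries in the fit (647 unadjusted), and 3 to 11 when 1 library was left out (the lone library is then assumed to vary like the others). The cause was not tested.

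No reversed value was called. Between the knockouts Rhox13 became 0.013 with quantile normalization and 0.078 with rescaled columns, and Rhox1 0.029 with rescaled columns. With 1 library left out, Rhox1 ran from -0.23 to 0.064, Rhox8 from -0.84 to 0.26 and Rhox13 from -0.27 to 0.19. In Prdm9 KO against wild type, quantile normalization gave 0.52 for Rhox3a, 0.068 for Rhox3b-ps and 0.42 for Rhox3f, rescaled columns 0.13 for Rhox3a and 0.36 for Rhox3f, and leaving out 1 library gave -1.07 to 0.46 for Rhox3a and -0.43 to 0.50 for Rhox3e. In Hop2 KO, quantile normalization gave 0.58 for Rhox3a2, 0.38 for Rhox3b-ps, 0.52 for Rhox3f and 0.25 for Rhox3h. Median-ratio scaling gave 0.11 for Rhox3a2 and 0.0043 for Rhox3f. Rescaled columns gave 0.52, 0.082, 0.36 and 0.13 for the same 4 genes, and leaving out 1 library gave -0.47 to 0.12 for Rhox3f and -0.39 to 0.18 for Rhox3a2. Alternatives added calls for Rhox3h in Prdm9 KO (4 alternatives, limma adjusted p = 0.0271 to 0.0317, the replicate block among them) and in Hop2 KO (0.0370). They also added Rhox3a2 in Prdm9 KO with quantile normalization (0.0410) and, with the replicate block, Rhox3e in Hop2 KO (0.0326) and Rhox3b-ps in Prdm9 KO (0.0336). Rhox2-ps lost its call in several settings, such as a pseudocount of 5 (adjusted p = 0.0546 and 0.0620). Within 1000 bases of a peak the member starts were still 3 of 5, and within 5000 bases 4 of 5, with Rhox1 added.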

Other observations

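The genes flanking the cluster differed among themselves. Of the 10 protein-coding genes nearest to it, 5 on each side, 9 were tested, and 6 rose and 2 fell in each knockout, where 34.6% and 35.0% of all genes rose and 39.4% and 39.5% fell. Ndufa1, a subunit of respiratory complex I, stood at 406 and 530 with Prdm9 knocked out, at 408 and 713 with Hop2 knocked out and at 127 in the wild type. Lamp2, a lysosomal membrane protein gene, rose by 1.68 and 1.85 on the log2 scale. Akap14 was at most 0.0118 in a knockout and 18.9 in wild type, and passed the filter only through wild type.

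Several weak Rhox transcripts differed between the libraries of 1 genotype, a pattern singled out after values were seen. Rhox3a measured 0.0486 and 2.03 (Prdm9 KO), 0.521 and 4.99 (Hop2 KO) and 1.21 (wild type), higher in the second library by 41.8 and 9.58 times. Rhox3e was higher there by 2.24 and 1.74 times. Rhox2-ps was lower there, at 15.2 and 9.48 in Prdm9 KO and 15.4 and 8.04 in Hop2 KO. Spermatid markers, which summed to 1.84 and 5.23 in Prdm9 KO and 1.78 and 31.5 in Hop2 KO, were also higher in the second libraries, and their part in these values was not tested.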
